A study of Drosophila melanogaster with 4 samples.

Results

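The genes described here encode the glutathione S-transferases, thioredoxins, peroxiredoxins, superoxide dismutases, catalase and glutamate-cysteine ligase of Drosophila melanogaster. Members were the rows whose gene name begins with Gst followed by a class letter from D, E, S, T, O or Z and a number, or with Trx, Prx, Jafrac or Gcl, or is Cat, Sod or Sod with a number. This gave 38 genes of 15495 rows, in classes of 10 GstD genes, 10 GstE genes, 1 other Gst gene (GstS1), 2 glutamate-cysteine ligase subunits, 11 thioredoxin and peroxiredoxin genes, and 4 superoxide dismutase and catalase genes. The RNA came from intestinal stem cells, the dividing cells of the adult fly gut, which had been sorted by flow cytometry. The 2 groups expressed RNA interference against Piwi, an Argonaute protein that silences transposons, or against mCherry, a foreign fluorescent protein, as the control. Both groups were kept at 29 °C for 7 days, with 2 libraries a group, and every library was made from 100 pooled guts. The mCherry RNAi libraries are called controls below. The source of the mCherry RNAi libraries is labelled yw and that of the Piwi RNAi libraries PiwiRNAi, so RNAi and genetic background cannot be told apart. The sources used here do not give the driver line, nor the sex and age of the flies.

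Glutathione S-transferases couple the tripeptide glutathione to reactive or foreign compounds, including products of lipid peroxidation and insecticides. Superoxide dismutases turn superoxide into hydrogen peroxide, which catalase and the peroxiredoxins remove, and thioredoxin, kept reduced by thioredoxin reductase, restores oxidised peroxiredoxins and other proteins. Flies have no glutathione reductase, and their thioredoxin system also keeps glutathione reduced. In the fly gut, the transcription factor CncC (the Nrf2 counterpart, from the gene cnc) and its inhibitor Keap1 control many of these genes and are known to affect how often stem cells divide.

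Values are FPKM, fragments per kilobase of transcript scaled to the mapped fragments of the library, as deposited. The depth estimated from the smallest values was 1615000 to 2290000 fragments per library. The progenitor factor esg was at 239.7 and 301.9 FPKM in the controls and at 415.9 and 378.5 FPKM after Piwi RNAi. Of 14 progenitor markers listed, 11 matched a row by symbol, and these 11 were tested and 0 passed. They summed to 1220 and 1276 FPKM in the controls and to 1471 and 1496 FPKM after Piwi RNAi. Both Piwi RNAi libraries lay above both controls for 8 of the 11, where 51.5% of all tested genes did so. Sox100B and bun had negative log2 differences (−0.11 and −0.08), and 9 were positive. Dl was at 3.41 and 3.98 FPKM in the controls against 4.49 and 3.55 FPKM and overlapped. Markers of mature enterocytes, the absorptive cells of the gut, were not evenly spread. The 27 of 31 listed enterocyte markers that matched a row summed to 24184 FPKM in mCherry RNAi replicate 1 and to 2003 FPKM in replicate 2, while the Piwi RNAi libraries summed to 2713 and 1491 FPKM. Of these, 26 were highest in mCherry RNAi replicate 1, none was listed at 0 in every library, and 0 passed the test between the groups. The targeted gene, piwi, was at 0.495 and 1.94 FPKM in the controls and at 0.208 and 0.442 FPKM after Piwi RNAi, under the filter of 1 FPKM on the mean. In the limma fit with no such filter its adjusted p was 0.402.

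None of the redox genes passed the test between Piwi RNAi and mCherry RNAi. Of the 38 genes, 35 had a mean of at least 1 FPKM and were tested by limma on log2(FPKM + 1) within the fit over 8313 genes, and 0 of these 35 had a Benjamini-Hochberg adjusted p under 0.05, where 1.18% of all tested genes did (0.613% higher and 0.565% lower in Piwi RNAi). At an unadjusted p under 0.05 there were 11 of the 35 (26.6% of all tested genes), 6 higher and 5 lower in Piwi RNAi, against 21.7% of all tested genes higher and 4.85% lower. Without mCherry RNAi replicate 1 or either Piwi RNAi library, this count fell for the redox genes and over all tested genes alike. Without mCherry RNAi replicate 2 both counts rose. The smallest adjusted p was 0.0594, for the peroxiredoxin gene Prx2540-2. The libraries came from separate pools. With 2 against 2 an exact permutation test of a single gene cannot go below p = 0.333, so the model across all genes carries the test.

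The genes did not share a direction. The median log2 difference (Piwi RNAi minus mCherry RNAi) of the 35 was −0.13, with 15 values above 0 and 20 below. Over all tested genes the median was 0.37, with 70.0% above 0 and 30.0% below. Both Piwi RNAi libraries lay above both mCherry RNAi libraries for 12 of the 35 redox genes, where 51.5% of all tested genes did so. They lay below both for 13 of the 35, where 13.0% of all tested genes did so. Set against mCherry RNAi replicate 2 alone, both Piwi RNAi libraries were higher for 15 of the 35 (58.6% of all tested genes) and lower for 14 (21.4%). The members' median was 0.10 without mCherry RNAi replicate 1 and 0.09 without Piwi RNAi replicate 2, so its sign rested on those libraries. In those fits the median of all tested genes was 0.27 and 0.36. Scaling by the median of ratios, which brings the median of all tested genes to −0.01, left 9 of the 35 differences above 0 and 26 below. In bulk RNA, fewer cells of a type and less RNA per cell cannot be told apart, and this holds for each difference below.

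**Figure D1:**
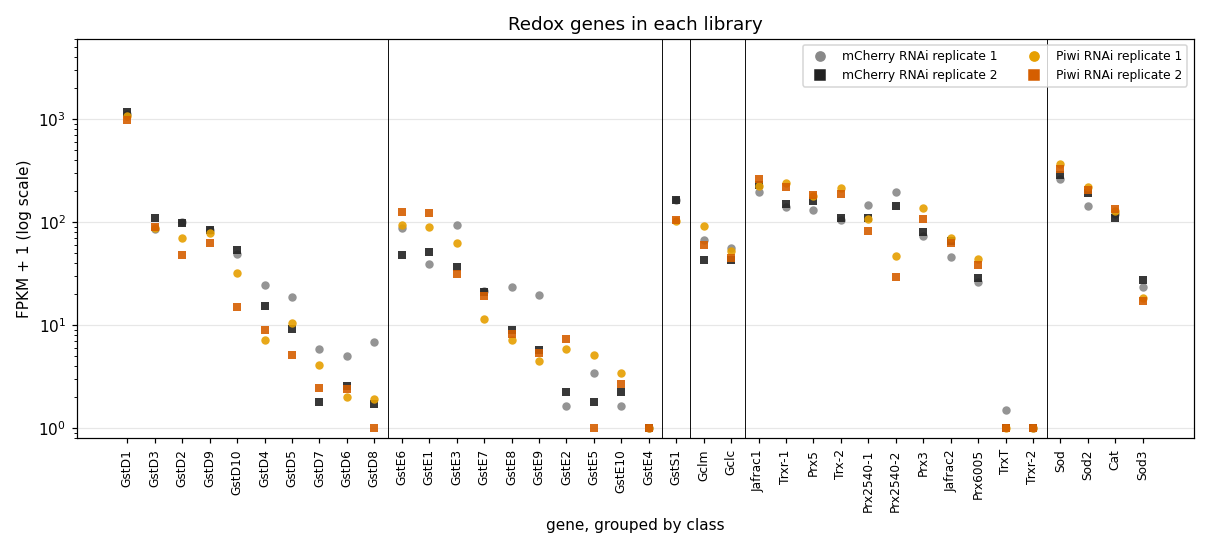
FPKM + 1 on a log axis for the 38 redox genes in each of the 4 libraries, grouped by class and ordered by mean level within it. GstD1 lies highest in every library, and the GstD and GstE classes hold both abundant genes and genes near the detection limit.

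**Figure D2:**
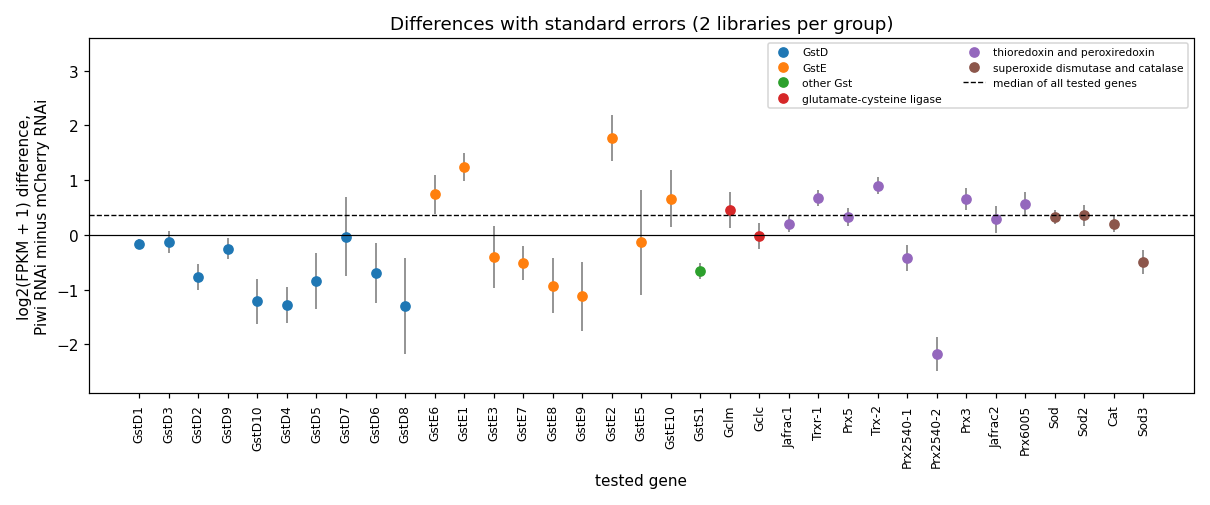
Log2(FPKM + 1) difference between Piwi RNAi and mCherry RNAi (limma estimate with its standard error, 2 libraries per group) for the 35 tested genes. All 10 GstD estimates lie below 0 (GstD1 is above 0 after quantile normalization), 7 of 9 thioredoxin and peroxiredoxin estimates lie above 0 (4 of 9 under median-of-ratios scaling), and the dashed line at 0.37 marks the median of all 8313 tested genes.

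Levels were uneven within the family. GstD1 (FBgn0001149), a detoxification enzyme whose regulatory region is a common reporter of oxidative stress, was the most abundant redox gene and ranked 110 among all rows by mean level. It made up 75.3% and 76.0% of the summed FPKM of the GstD class in mCherry RNAi and 78.8% and 81.3% in Piwi RNAi. Together the 38 genes made up 0.351% and 0.346% of all FPKM in mCherry RNAi and 0.429% and 0.384% in Piwi RNAi. Their summed FPKM overlapped, with 3668 and 3634 in mCherry RNAi against 3862 and 3571 in Piwi RNAi. The total over all rows was 1044487 and 1050749 FPKM in mCherry RNAi and lower, 900475 and 928972 FPKM, in Piwi RNAi. GstE4 and Trxr-2 were listed at 0 in each library, and TrxT, a thioredoxin gene known from the testis, had 0.495 FPKM in mCherry RNAi replicate 1 and was listed at 0 in the others. These 3 genes were not tested.

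The GstD genes lie side by side on chromosome arm 3R, and none passed the test. GstD1 was at 1127 and 1170 FPKM in the controls and at 1066 and 980.1 FPKM after Piwi RNAi (log2 difference −0.17 ± 0.09, standard error; adjusted p = 0.281). The groups did not overlap, but the gap between them was smaller than the distance between the Piwi RNAi libraries. Next in level were GstD3, GstD2 and GstD9, whose means over all libraries lay close together. GstD3 was at 85.0 and 109.8 FPKM in the controls and at 87.6 and 88.2 FPKM after Piwi RNAi, so its groups overlapped. GstD9 was at 82.6 and 83.4 FPKM in the controls and at 78.2 and 61.8 FPKM after Piwi RNAi, with an adjusted p of 0.406.

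Larger differences appeared in the less abundant neighbours. GstD2, which lies next to GstD1 and is read from the other strand, was at 98.7 and 97.0 FPKM in the controls and at 69.1 and 47.1 FPKM after Piwi RNAi (log2 difference −0.77 ± 0.24; adjusted p = 0.160). GstD10, at one end of the stretch, was at 48.0 and 52.6 FPKM in the controls and at 31.2 and 14.0 FPKM after Piwi RNAi (log2 difference −1.22 ± 0.40; adjusted p = 0.166). In both genes the controls were alike and the Piwi RNAi libraries were lower and further apart. Without Piwi RNAi replicate 2 the differences were −0.50 for GstD2 and −0.67 for GstD10. GstD4 was at 23.7 and 14.5 FPKM in the controls and at 6.21 and 7.99 FPKM after Piwi RNAi (log2 difference −1.28 ± 0.33; adjusted p = 0.139). In fragments this is about 29 and 18 against 6 and 11.

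Every one of the 10 GstD genes had a negative difference, from −1.31 for GstD8 to −0.04 for GstD7, though GstD1 was at 0.13 after quantile normalization, GstD7 at 0.82 without mCherry RNAi replicate 1 and 0.33 without Piwi RNAi replicate 2, and GstD3 at 0.05 without mCherry RNAi replicate 2. In 6 of the 10, both Piwi RNAi libraries were below both controls, where 13.0% of all tested genes were. The estimate for GstD8 was −0.31 without mCherry RNAi replicate 1 and −2.30 without mCherry RNAi replicate 2. The class median was −0.73, and −0.31 without mCherry RNAi replicate 1. The least abundant members were highest in that library. GstD8 was at 5.85 and 0.719 FPKM in the controls and at 0.925 and 0 FPKM after Piwi RNAi. In fragments this is about 8 and 1 against 1 and 0. The Piwi RNAi mean of GstD8 was 0.463 FPKM, so only its control values took it past the filter of 1 FPKM. GstD7 was at 4.95 and 0.812 FPKM in the controls and at 3.14 and 1.47 FPKM after Piwi RNAi. GstD5 was at 17.7 and 8.23 FPKM in the controls against 9.42 and 4.13 FPKM, and GstD6 was at 4.0 and 1.57 FPKM in the controls against 1.01 and 1.42 FPKM. For GstD5 and GstD8 mCherry RNAi replicate 2 lay within the range of the Piwi RNAi libraries, and for GstD7 it lay below both of them. The GstD genes are close paralogs, and the sources used here do not say how reads were shared between them, so levels of the lower members are uncertain.

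The GstE genes, a second tandem cluster on arm 2R, had differences in both directions, and none passed the test. GstE1 (FBgn0034335), next to GstE10 at one end of the row, was at 38.0 and 50.3 FPKM in the controls and at 89.3 and 123.0 FPKM after Piwi RNAi (2.40-fold by group means; log2 difference 1.24 ± 0.26; adjusted p = 0.119). Its neighbour GstE2 was at 0.644 and 1.27 FPKM in the controls and at 4.89 and 6.30 FPKM after Piwi RNAi (log2 difference 1.76 ± 0.42; adjusted p = 0.135). Both genes were higher in each Piwi RNAi library than in each control, as were 51.5% of all tested genes. Their differences were 0.84 for GstE1 and 1.499 for GstE2 under median-of-ratios scaling. In fragments, GstE2 was at about 1 and 2 against 6 and 11, a depth-scaled ratio of 5.99. The 95% Clopper-Pearson interval was 1.73 to 31.9, for counting error alone. The control mean of GstE2 was 0.954 FPKM, so only its Piwi RNAi values took it past the filter of 1 FPKM. It was also named for its difference, so the interval is no support for a difference. GstE10, which overlaps the start of GstE1 on the opposite strand, was at 0.638 and 1.26 FPKM in the controls against 2.42 and 1.71 FPKM. With a control mean of 0.947 FPKM, GstE10 too passed the filter only through its Piwi RNAi values. No source used here gives the strand setting, so reads of GstE1 and GstE10 cannot be told apart where they overlap.

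GstE6, in the middle of the cluster, was the most abundant GstE gene, with 87.7 and 46.9 FPKM in the controls and 93.2 and 124.7 FPKM after Piwi RNAi (log2 difference 0.74 ± 0.35; adjusted p = 0.238). Its difference was 1.18 without mCherry RNAi replicate 1, 0.29 without mCherry RNAi replicate 2 and 0.33 under median-of-ratios scaling. GstE3 was at 92.9 and 36.1 FPKM in the controls against 62.2 and 30.5 FPKM, and its log2 difference of −0.40 became 0.27 without mCherry RNAi replicate 1. GstE7 was at 20.5 and 20.1 FPKM in the controls and at 10.6 and 18.2 FPKM after Piwi RNAi, with an adjusted p of 0.316. At the far end of the cluster, mCherry RNAi replicate 1 stood above the other libraries. GstE8 had 22.7 FPKM there and 7.95 FPKM in replicate 2, while the Piwi RNAi libraries were at 6.15 and 7.20 FPKM. GstE9 was at 18.8 and 4.80 FPKM in the controls and at 3.53 and 4.34 FPKM after Piwi RNAi (log2 difference −1.12 ± 0.63; adjusted p = 0.288), and the difference was −0.24 without mCherry RNAi replicate 1. The exons of GstE9 also overlap those of imd, an immune adaptor gene, on the opposite strand. GstE5 had between 0 and 4.17 FPKM, and its groups overlapped. The class median was −0.14, with 4 of 9 tested genes above 0 and 5 below, and it was 0.33 without mCherry RNAi replicate 1.

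**Figure D3:**
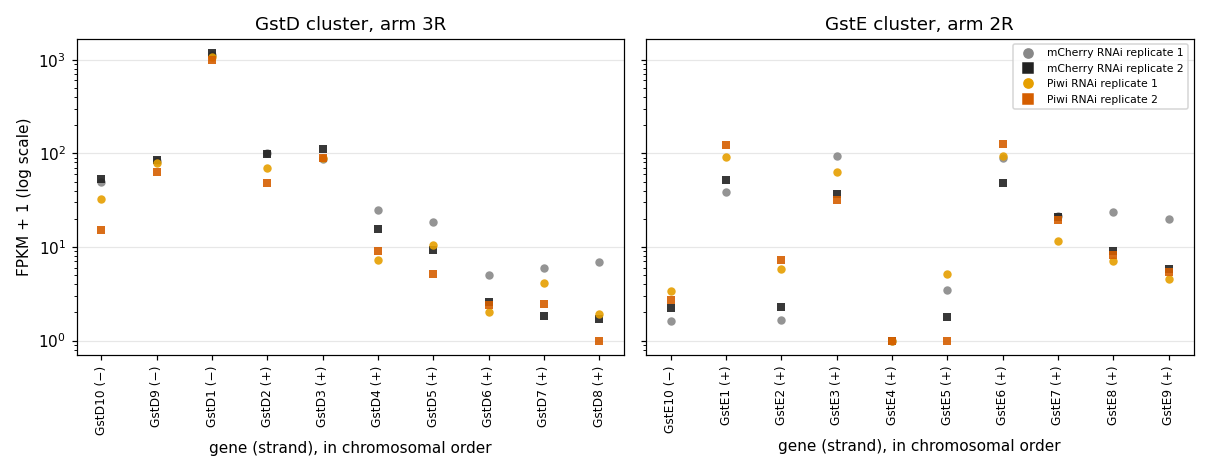
FPKM + 1 on a log axis for the GstD genes (left) and the GstE genes (right) in chromosomal order, with the strand of each gene in brackets and 1 point per library. GstD2, GstD4 and GstD10 have both Piwi RNAi points under both mCherry RNAi points, GstE1 and GstE2 have them above, and GstE8 and GstE9 have 1 high point in mCherry RNAi replicate 1.

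The difference between the controls was as large as many of these differences. Of the 35 tested redox genes, 6 lay over 1 on the log2 scale higher in the first control than in the second, and 0 lay as far the other way. Of all 8313 tested genes, 704 lay over 1 higher in the first control and 610 in the second. Their median for replicate 2 minus replicate 1 was 0.18. The 6 redox genes were GstD5, GstD7, GstD8, GstE3, GstE8 and GstE9. The enterocyte markers moved the same way, with 23 of 27 over 1 higher in replicate 1 and a median of −3.35 for replicate 2 minus replicate 1. Of 13 tested visceral muscle markers, 10 were over 1 higher in replicate 1 and 0 passed the test between the groups. Without Tm1, a tropomyosin gene that made up most of the sum, the other 16 summed to 153.7 and 47.6 FPKM in the controls and to 50.9 and 28.6 FPKM in Piwi RNAi. Tm1 itself was lowest in mCherry RNAi replicate 1, and with it the sums were 353.2 and 294.9 FPKM against 321.9 and 308.9 FPKM. Mlc1, a muscle myosin light chain gene, was at 12.1 FPKM in mCherry RNAi replicate 1 and listed at 0 in the others. Enteroendocrine markers (13 of 20 listed matched) summed to 2856 and 5617 FPKM in the controls and to 273.9 and 487.6 FPKM in Piwi RNAi. Of these, 10 were tested and 2 passed as lower in Piwi RNAi, where 0.565% of all tested genes did. Hemocyte markers (8 of 11 matched) summed to at most 5.55 FPKM and fat body markers (8 of 9 matched) to at most 16.5 FPKM, with 2 genes of each list at 0 in every library. The thioredoxin and peroxiredoxin genes did not follow, with differences between the controls of −0.44 to 0.52. The part of RNA from these other cell types in the GstD and GstE differences was not tested.

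**Figure D4:**
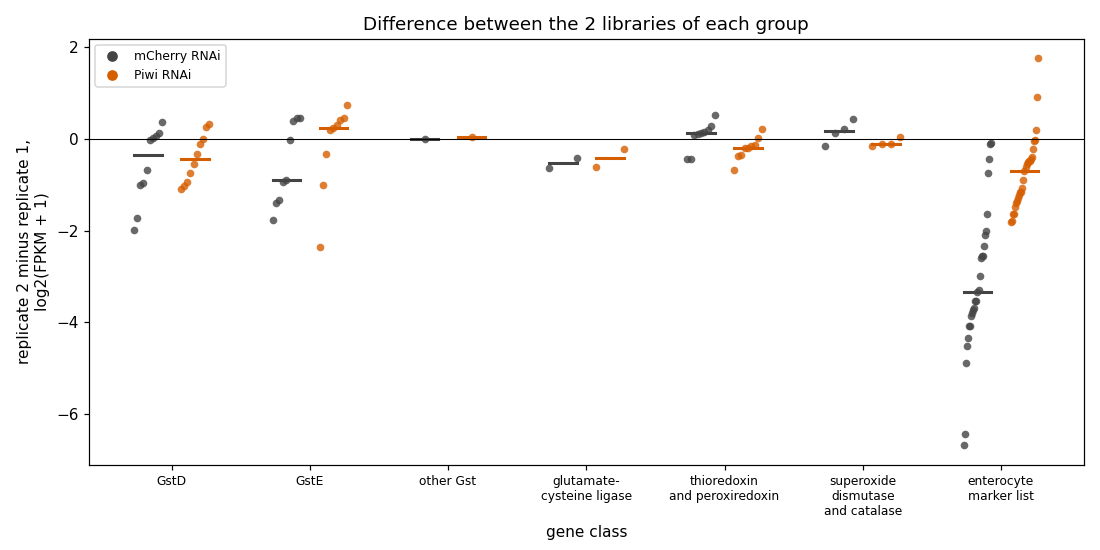
Replicate 2 minus replicate 1 on the log2(FPKM + 1) scale within mCherry RNAi (grey) and within Piwi RNAi (orange), for the tested genes of each redox class and for 27 enterocyte markers; bars are medians. The enterocyte markers have a median of −3.35 in mCherry RNAi, the GstE genes −0.89 and the GstD genes −0.35, while the thioredoxin and peroxiredoxin genes have 0.13.

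GstS1 (FBgn0010226), the only fly glutathione S-transferase of the sigma class, which conjugates a lipid peroxidation product, had replicates that lay close together. It was at 162.8 and 162.0 FPKM in the controls and at 101.0 and 103.6 FPKM after Piwi RNAi. Each Piwi RNAi library was well under each control, and the groups were further apart than the spread within them. The log2 difference was −0.66 ± 0.15 with an adjusted p of 0.132, and leaving out any 1 library kept it between −0.68 and −0.64. The 2 subunits of glutamate-cysteine ligase, which makes the first step of glutathione synthesis, did not differ beyond their spread. The catalytic subunit gene Gclc was at 55.6 and 41.7 FPKM in the controls and at 51.1 and 43.7 FPKM after Piwi RNAi. The modifier subunit gene Gclm was at 66.2 and 42.5 FPKM in the controls against 90.5 and 59.0 FPKM (log2 difference 0.45 ± 0.33; adjusted p = 0.378).

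The lowest of all redox differences was that of Prx2540-2 (FBgn0033518), one of a group of nearly identical peroxiredoxin genes of the peroxiredoxin 6 type on arm 2R. It was at 196.0 and 143.9 FPKM in the controls and at 46.2 and 28.3 FPKM after Piwi RNAi, 4.56-fold lower by group means. Each Piwi RNAi library was far under each control. In fragments this is about 291 and 217 against 54 and 47. The log2 difference was −2.18 ± 0.31 with a limma adjusted p of 0.0594, which misses the threshold. It passed when genes under a mean of 5 FPKM were left out (adjusted p = 0.0455) and with a robust fit (adjusted p = 0.0213), and over the alternatives the adjusted p ranged from 0.0117 to 0.483. Leaving out any 1 library kept the difference between −2.53 and −1.84.

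Its close copies had smaller differences, and the contrast between the copies was not tested. Prx2540-1 was at 145.9 and 108.0 FPKM in the controls and at 105.6 and 81.6 FPKM after Piwi RNAi (log2 difference −0.43 ± 0.24; adjusted p = 0.281). CG12896, a further peroxiredoxin gene of that stretch, was at 86.7 and 68.4 FPKM in the controls against 90.5 and 64.1 FPKM (log2 difference −0.02 ± 0.25). Within each library the level of Prx2540-2 relative to Prx2540-1 was 1.34 and 1.33 in mCherry RNAi and 0.437 and 0.347 in Piwi RNAi. This ratio is set within a library, so no scaling between libraries enters it, and the groups did not overlap. Prx2540-2 was named for its low difference, so the ratio restates that difference and is no separate support for it. The copies are nearly identical, and how reads were divided between them is uncertain, so the level of each copy is uncertain too.

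The core of the thioredoxin system had higher values in Piwi RNAi that did not pass the test. Trx-2 (FBgn0040070), the general thioredoxin of the cell, was at 103.9 and 109.7 FPKM in the controls and at 215.4 and 186.2 FPKM after Piwi RNAi (1.88-fold by group means; log2 difference 0.90 ± 0.16; adjusted p = 0.0965). Trxr-1, the reductase that recharges it, was at 139.0 and 149.0 FPKM in the controls and at 241.7 and 219.9 FPKM after Piwi RNAi (log2 difference 0.68 ± 0.15; adjusted p = 0.128). For both, the controls lay close to each other and each Piwi RNAi library was higher. Groups did not overlap in this direction for 51.5% of all tested genes. Under median-of-ratios scaling, the differences were 0.50 for Trx-2 and 0.27 for Trxr-1. Exons of Trxr-1 overlap those of sni on the opposite strand, and sni had a log2 difference of 0.46.

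Among the other peroxiredoxins was the mitochondrial Prx3, at 72.8 and 79.8 FPKM in the controls and at 136.4 and 106.0 FPKM after Piwi RNAi. Its log2 difference was 0.65 ± 0.20 (limma adjusted p = 0.158). Prx6005, a peroxiredoxin 6 type gene on arm 2L, was at 25.2 and 28.0 FPKM in the controls against 42.8 and 37.2 FPKM (log2 difference 0.57 ± 0.21; adjusted p = 0.177). In both genes the groups did not overlap, as for 51.5% of all tested genes in this direction, and the differences were 0.25 for Prx3 and 0.17 for Prx6005 under median-of-ratios scaling. Prx5 was at 130.8 and 158.3 FPKM in the controls and at 178.4 and 181.1 FPKM after Piwi RNAi, with a log2 difference of 0.32. Exons of Prx5 overlap those of CG7215 on the same strand, so how reads were divided between them is uncertain. The cytosolic Jafrac1, the most abundant peroxiredoxin, was at 197.3 and 226.5 FPKM in the controls against 225.5 and 263.2 FPKM, so its groups overlapped. Jafrac2, which resides in the endoplasmic reticulum, was at 44.6 and 64.5 FPKM in the controls against 68.8 and 62.1 FPKM and also overlapped. Exons of Jafrac2 and Prx6005 overlap those of scramb2 and CG8814, respectively, on the opposite strand. Of the 9 tested thioredoxin and peroxiredoxin genes, 7 had positive differences, against 70.0% of all tested genes. The median of the 9 was 0.32, below the 0.37 of all tested genes, and it was 0.18 without mCherry RNAi replicate 1 and −0.087 under median-of-ratios scaling, where Prx5, Jafrac1 and Jafrac2 were also below 0.

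In the superoxide dismutase and catalase class, Sod, Sod2 and Cat differed little, and no gene of the class passed the test. Sod, the cytosolic copper and zinc superoxide dismutase (FBgn0003462), was at 262.7 and 285.9 FPKM in the controls and at 364.1 and 324.9 FPKM after Piwi RNAi (log2 difference 0.33 ± 0.13; adjusted p = 0.203). Sod2, the mitochondrial manganese enzyme, was at 141.4 and 191.9 FPKM in the controls against 219.4 and 202.3 FPKM (log2 difference 0.35 ± 0.20; adjusted p = 0.288). Cat, the catalase gene, was at 119.4 and 107.8 FPKM in the controls against 128.3 and 133.0 FPKM (log2 difference 0.20 ± 0.16; adjusted p = 0.407). These 3 differences lay below the median of all tested genes and were −0.08, −0.05 and −0.20 under median-of-ratios scaling. Sod3, the extracellular superoxide dismutase, was the lower one of the class, with 22.4 and 26.3 FPKM in the controls and 17.5 and 16.2 FPKM after Piwi RNAi (log2 difference −0.50 ± 0.22; adjusted p = 0.214).

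Later names of the same gene identifiers added 15 Gst and peroxiredoxin genes that the table lists under CG numbers, and they were looked up after the values of the others were known. Of these, 12 were tested and 0 passed, with 4 at an unadjusted p under 0.05 (26.6% of all tested genes) and a median log2 difference of 0.25, which was −0.14 under median-of-ratios scaling. GstE11 (CG5224), which lies apart from the GstE cluster, was at 23.8 and 31.0 FPKM in the controls and at 81.8 and 86.2 FPKM after Piwi RNAi (3.06-fold by group means; log2 difference 1.59 ± 0.22; adjusted p = 0.0565). GstO3 (CG6776), an omega class gene and one of the most abundant Gst genes here, was at 703.3 and 659.0 FPKM in the controls against 374.1 and 426.2 FPKM (log2 difference −0.77 ± 0.12; adjusted p = 0.0785). For both genes the groups were far apart relative to their spread. Of the other omega genes, se, the sepia eye pigment enzyme, lies next to GstO3 and was at 30.7 and 22.6 FPKM in the controls against 8.83 and 13.7 FPKM (log2 difference −1.19; adjusted p = 0.140). GstO2 (CG6673), in the same stretch, was at 221.4 and 216.3 FPKM in the controls against 214.5 and 214.2 FPKM, a log2 difference of −0.03. GstT1 (CG30000), of the theta class, was at 28.6 and 33.6 FPKM in the controls against 53.2 and 59.4 FPKM (adjusted p = 0.138).

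Of the other genes of the pathway, drawn from 4 lists and without the members above, 33 were tested and 0 passed in either direction. Differences were positive for 22 of the 33, against 70.0% of all tested genes, and for 11 under median-of-ratios scaling. The median of the 33 was 0.25, below the 0.37 of all tested genes. With members included, the list medians were 0.24 for Nrf2 regulators, 0.26 for other thiol and peroxide enzymes, −0.03 for glutathione synthesis and turnover and 0.17 for NADPH supply. Under median-of-ratios scaling the median of the 33 was −0.14, and the list medians were −0.14, −0.14, −0.43 and −0.21 in the same order. All 5 genes of the Nrf2 list were tested. The Nrf2 counterpart cnc was at 42.2 and 41.5 FPKM in the controls and at 60.5 and 57.0 FPKM after Piwi RNAi (log2 difference 0.48 ± 0.18; adjusted p = 0.183). The autophagy receptor ref(2)P was at 150.0 and 118.2 FPKM in the controls against 192.4 and 204.7 FPKM (adjusted p = 0.160), and the small Maf partner maf-S was at 53.6 and 64.0 FPKM in the controls against 59.4 and 74.9 FPKM. Groups did not overlap for cnc and ref(2)P, as for 51.5% of all tested genes in this direction, and their differences were 0.079 and 0.17 under median-of-ratios scaling. Keap1, the inhibitor of CncC, was at 11.7 and 9.58 FPKM in the controls against 10.4 and 15.4 FPKM and overlapped.

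In the list of other thiol and peroxide enzymes, 22 of 35 symbols matched a row and 14 were tested. Txl, a thioredoxin-like gene whose human counterpart binds the proteasome, was at 31.2 and 48.0 FPKM in the controls and at 109.9 and 140.9 FPKM after Piwi RNAi (3.17-fold by group means; log2 difference 1.66 ± 0.28; adjusted p = 0.0867). Each Piwi RNAi library lay far above both controls, where 51.5% of all tested genes had no overlap in this direction. The limma adjusted p of Txl was 0.0372 with a robust fit, and it ranged from 0.0215 to 0.547 over the alternatives. The ferritin light chain gene Fer2LCH was at 625.2 and 599.1 FPKM in the controls against 725.5 and 774.6 FPKM (adjusted p = 0.171). CCS, the copper chaperone of superoxide dismutase, was outside the lists and was looked up after its values were seen. It was at 15.9 FPKM in both controls and at 35.6 and 48.1 FPKM after Piwi RNAi (log2 difference 1.33 ± 0.24; adjusted p = 0.0980), while Sod itself differed by 0.33.

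In glutathione synthesis and turnover, 9 of 15 symbols matched and these were tested. Eip55E, which makes cysteine from cystathionine, was at 84.5 and 87.6 FPKM in the controls and at 125.4 and 141.4 FPKM after Piwi RNAi (log2 difference 0.62 ± 0.16; adjusted p = 0.140). The glutathione synthetase genes GS and CG32495 had the same values, to the digits shown, in 3 of the 4 libraries, so their reads may not be separable, with 122.6 FPKM in mCherry RNAi replicate 1 and 146.3 and 149.7 FPKM in Piwi RNAi. NADPH, the reductant that thioredoxin reductase uses, is supplied by several enzymes. The list took in genes of the pathways around these enzymes too, so it is no measure of NADPH itself. Of 12 listed genes, 8 matched and were tested. Tal, the transaldolase of the pentose phosphate pathway, was at 73.4 and 73.6 FPKM in the controls and at 126.0 and 155.5 FPKM after Piwi RNAi (1.91-fold by group means; log2 difference 0.92 ± 0.18; adjusted p = 0.113). Idh was at 163.1 and 114.1 FPKM in the controls against 213.9 and 203.1 FPKM (adjusted p = 0.175), while the mitochondrial folate enzyme Nmdmc was at 105.4 and 83.7 FPKM in the controls against 70.2 and 30.6 FPKM (adjusted p = 0.209). Without Piwi RNAi replicate 2 the difference of Nmdmc was −0.41, and without mCherry RNAi replicate 2 that of Idh was 0.35. Zw, which encodes glucose-6-phosphate dehydrogenase, was at 8.81 and 8.45 FPKM in the controls against 17.6 and 8.30 FPKM and overlapped.

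**Figure D5:**
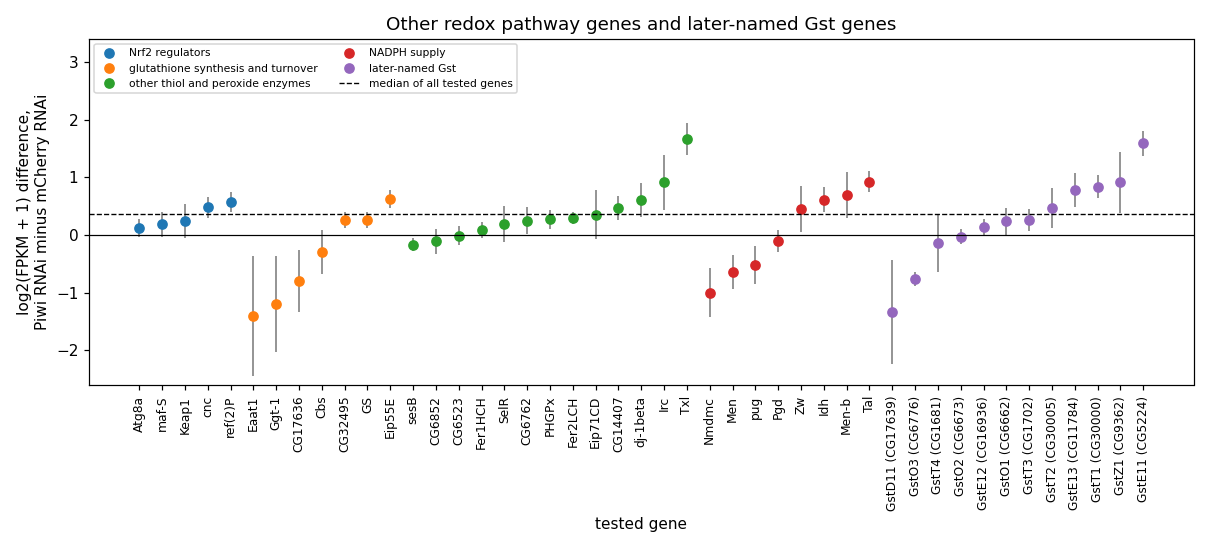
Log2(FPKM + 1) difference between Piwi RNAi and mCherry RNAi (limma estimate with its standard error, 2 libraries per group) for 33 tested genes of 4 pathway lists and 12 tested Gst genes listed under CG numbers. Txl at 1.66 and GstE11 at 1.59 are the highest, and the dashed line at 0.37 is the median of all tested genes.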

How the data were processed

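The authors deposited 1 table of FPKM values, with 1 column per library and 1 row per gene. Per the submitters' processing notes, TopHat and Cufflinks were used. No source used here gives their versions, the genome build, the gene models, the strand setting or how libraries were scaled. Per the labels' protocols, the RNA was a Trizol extract and the library kit was TruSeq RNA. FPKM values were tested by limma 3.58.1 in R 4.3.3 on log2(FPKM + 1), as a two-sided test with a mean-variance trend in eBayes. It covered the 8313 genes that averaged 1 FPKM or more, with Benjamini-Hochberg adjustment over these genes and a threshold of 0.05. This scale understates the change of low genes. Residual degrees of freedom were 2, prior ones 2.86, and the script was tested on simulated data.

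The value of 1 fragment per library was estimated from the low values of genes with 1 annotated transcript, with 130 nt subtracted from each transcript's length in the Ensembl BDGP6 annotation. Of the low values, 82.4% to 85.6% then lay within 0.1 of a whole number. Arms, strands, overlaps and later names come from gene identifiers matched to that annotation and to the gene name table (38 of 38 members matched).

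The members, lists and tests were chosen with earlier results of these data known. The genes named were, per class, the 4 with the highest mean, the 6 per direction with the largest difference and no overlap among those whose higher group averaged 5 FPKM or more, and the 3 smallest p of each pathway list. Members outside this rule were named to account for the class. CG12896, sni, Keap1, Zw, Mlc1, Tm1, GstE11, GstO2, GstO3, GstT1, se and CCS were named after their values were seen. Alternatives were pseudocounts of 0.1 and 5, other filters, other scalings, eBayes robust or with no trend, a block for the replicate number, and each library left out.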

Additional observations from a re-analysis of the deposited data

How the results depend on the processing

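The count of redox genes past the limma threshold was 0 in the fit as reported and 1 when genes under a mean of 5 FPKM were left out and 1 with a robust fit, Prx2540-2 in both. With the replicate block it was 2, Prx2540-2 and GstE1 (adjusted p = 0.0117 and 0.0489). The labels do not say that the numbers pair the pools, and deviations of same-numbered libraries correlated at 0.25 across genes. Over all tested genes the 98 calls became 0 with no filter on low values (2268 at an unadjusted p under 0.05), 167 with genes under a mean of 5 FPKM left out, 8 under median-of-ratios scaling, 35 after quantile normalization, 4 without a trend, 209 with a robust fit and 194 with the replicate block. With each library left out they ranged from 0 to 0, with 619 to 3195 at an unadjusted p under 0.05. The members' median of −0.13 ranged from −0.43 under median-of-ratios scaling to 0.10 without mCherry RNAi replicate 1. It was also above 0 without Piwi RNAi replicate 2 (0.09). Relative to the median of all tested genes in the same fit, it was −0.50 as reported. This relative value ranged from −0.69 without mCherry RNAi replicate 2 to −0.17 without mCherry RNAi replicate 1.

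Over the alternatives run for 35 named genes, 433 of 454 values kept their sign and their side of the threshold, 6 newly passed it and 15 changed sign, of which none was past the threshold. Under median-of-ratios scaling the differences were −0.14 for CG32495 and for GS, −0.20 for Cat and for Jafrac1, −0.12 for Fer2LCH, −0.087 for Prx5, −0.080 for Sod, −0.053 for Sod2 and −0.22 for maf-S. After quantile normalization they were −0.0029 for Cat, 0.13 for GstD1 and −0.033 for maf-S. With each library left out, GstE3 ranged from −1.07 to 0.27 and GstD3 from −0.32 to 0.049. The cause was not tested. At 1615000 to 2290000 fragments per library, genes under 5 FPKM rest on few fragments.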
